A study of Mus musculus with 4 samples.

Results

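A set of 1058 cells was drawn from the 24849 cells of 4 single-cell libraries of embryonic mouse hearts by its RNA for genes of the vessel wall, under the working name mural and outflow smooth muscle cells. A cell was kept if it held at least 500 UMIs (unique molecular identifiers, each marking 1 captured transcript), at most 20% of them mitochondrial, and under 1% from the cardiomyocyte genes Tnnt2, Actc1, Myh6 and Myh7. It also had to show at least 3 distinct genes of Eln, Fbln5, Rgs5, Osr1, Lmod1, Cxcl12, Myh11, Sfrp2 and Notch3. Cells with a UMI of the endothelial genes Pecam1 or Cdh5, or of Dpp4 or Mfap5, were left out. So were cells with 2 or more UMIs summed over Tcf21, Spon2, Lsp1, Slc38a5, Gucy1a3 and Col14a1, or summed over the epicardial genes Upk3b, Upk1b, Msln, Krt7 and Krt19. The cells were thus chosen by the UMIs of the 9 genes and of the exclusion genes, so their levels are a description. The rule took 451 cells from the Lats1/2 CKO library and 324 from the control library at E13.5, and 146 from the Lats1/2 CKO library and 137 from the control library at E14.5. They are called Eln- and Fbln5-rich cells here, because the markers of mural cells were only partly present.

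Lats1/2 CKO embryos carried Wt1 CreERT2/+, floxed Lats1 and Lats2 (F/F) and the Rosa26mTmG/+ reporter. Control embryos carried Wt1 CreERT2/+ and Rosa26mTmG/+. Both genotypes thus carried the same Cre allele and the same reporter, and there was 1 library for each genotype at E13.5 and at E14.5. The Cre is made where Wt1 is active, which in the embryonic heart is mainly the epicardium, so recombination was driven there and not in vascular smooth muscle as such. The number of embryos behind a library, their sex and the tamoxifen schedule are not given in the sources used here.

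Smooth muscle cells of the outflow tract and coronary vessels wrap the endothelium, contract through smooth muscle actin and myosin, and lay down elastic fibres around the great arteries. They come from several sources, among them the second heart field, the neural crest and the epicardium, whose cells enter the myocardium after an epithelial-to-mesenchymal transition. Lats1 and Lats2 are the kinases of the Hippo pathway that phosphorylate Yap and Taz and keep them out of the nucleus. There Yap and Taz act with TEAD factors, which bind MCAT elements. Myocardin and SRF bind CArG boxes in the promoters of many contractile genes.

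The floxed genes were counted too sparsely to check the genotype in these cells. Lats1 had 32 UMIs in the Lats1/2 CKO cells and 13 in the control cells at E13.5, followed by 3 and 4 at E14.5. Lats2 had 13 UMIs in Lats1/2 CKO and 15 in control cells at E13.5, followed by 2 and 1 at E14.5. Drop-seq counts the 3′ end of a transcript, which can lie outside the floxed exons, so neither value checks the deletion. Wt1, the gene whose locus drives the Cre, had 5 UMIs in Lats1/2 CKO and 1 in control cells at E13.5, followed by 1 and 1 at E14.5.

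The sums over these cells held 914634 UMIs in Lats1/2 CKO and 611685 in control at E13.5, and 176820 in Lats1/2 CKO and 170891 in control at E14.5. The median cell had 1674, 1410.5, 963 and 948 UMIs in the same libraries. The E14.5 sums were thus the smaller, and small differences are harder to see there. The median mitochondrial share was 2.41% in Lats1/2 CKO and 2.50% in control cells at E13.5, followed by 4.51% and 2.80% at E14.5. Of 21486 barcodes of cells that passed the first filters, 9 occurred in more than 1 library, and 0 of them were among the 1058 cells. All levels are given as CPM, the UMIs of a gene per 1000000 UMIs summed over the cells of a library, and the 10386 other cells under the cardiomyocyte limit serve as the comparison. In these sums, fewer cells of a kind and less RNA per cell cannot be told apart.

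Elastic fibre genes were high in the chosen cells of every library. Eln, which encodes tropoelastin, stood at 5417 CPM in Lats1/2 CKO and 5303 CPM in control cells at E13.5, and at 7239 and 6870 CPM at E14.5. In the other cells Eln had 1274 CPM in Lats1/2 CKO and 759 CPM in control at E13.5, and 566 and 521 CPM at E14.5. Fbln5, whose product fibulin-5 organises elastic fibres, had 2738 CPM in Lats1/2 CKO and 3317 CPM in control cells at E13.5, and 2703 and 2428 CPM at E14.5. Sfrp2, a secreted Wnt modulator, had 3290 and 3363 CPM at E13.5 and 3201 and 2856 CPM at E14.5, Lats1/2 CKO before control at each stage. Cxcl12, a chemokine made by perivascular and outflow cells, had 1213 CPM in Lats1/2 CKO and 1581 CPM in control at E13.5, and 763 and 825 CPM at E14.5. Rgs5, a regulator of G protein signalling and a pericyte marker, had 774 and 942 CPM at E13.5 and 577 and 585 CPM at E14.5. All 5 genes are part of the rule, so no comparison of genotypes is drawn from them.

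**Figure D1:**
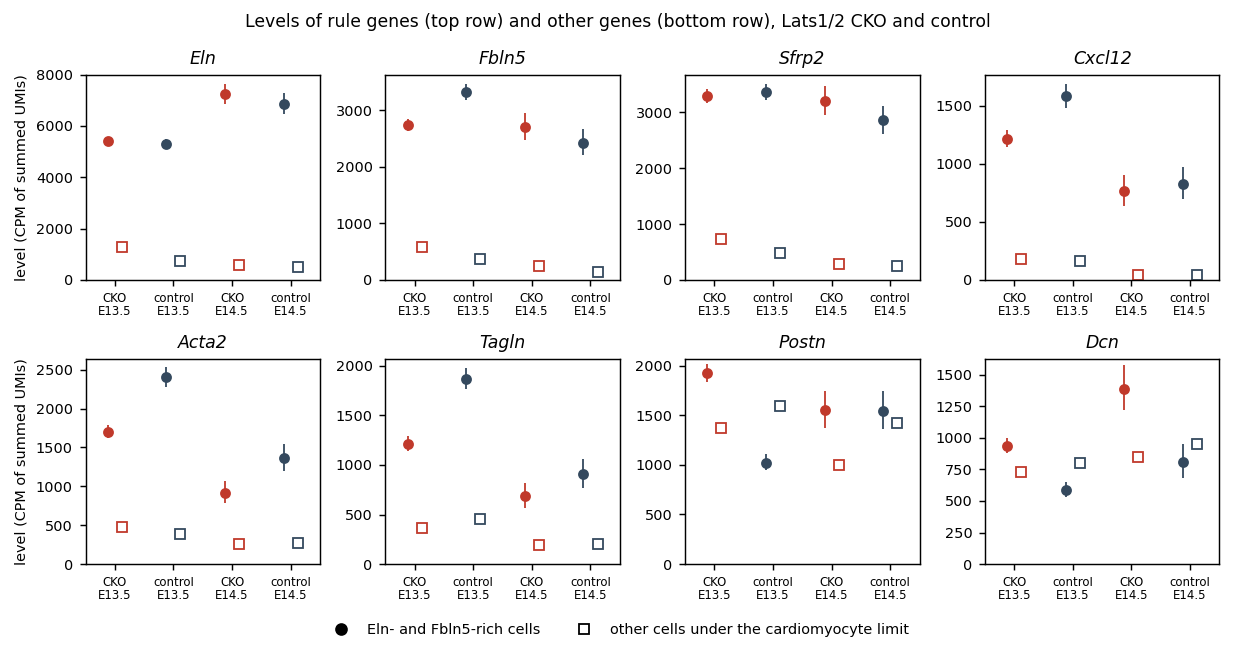
Level of 8 genes (CPM of summed UMIs, vertical axis) in each library, Lats1/2 CKO in red and control in blue, with 95% Poisson intervals that cover counting error only; filled circles are the Eln- and Fbln5-rich cells and open squares the other cells under the cardiomyocyte limit. Acta2 and Tagln were lower in Lats1/2 CKO than in control at both stages, with Acta2 at 1699 against 2403 CPM at E13.5. Eln, Fbln5, Sfrp2 and Cxcl12 belong to the rule, so the genotypes are not compared by them.

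The check of the working name gave a mixed picture. Genes of smooth muscle were above the other cells in all 4 libraries: the 18 contractile genes listed summed to 9022 CPM in Lats1/2 CKO and 11746 CPM in control cells at E13.5, and to 6492 and 8497 CPM at E14.5. In the other cells the same list summed to 4917 and 5039 CPM at E13.5 and to 4122 and 4126 CPM at E14.5. Without Myh11 and Lmod1, which belong to the rule, the sums were 8917 and 11566 CPM at E13.5 and 6396 and 8304 CPM at E14.5, against 4894, 5022, 4112 and 4118 CPM in the other cells. Myh11, the myosin heavy chain of mature smooth muscle, was sparse, with 15 UMIs in Lats1/2 CKO and 40 in control cells at E13.5, followed by 1 and 8 at E14.5. The pericyte list summed to 1145 CPM in Lats1/2 CKO and 1310 CPM in control cells at E13.5, and to 1024 and 983 CPM at E14.5, above the 428, 365, 353 and 411 CPM of the other cells. Most of this came from Rgs5 and Notch3, which belong to the rule: without them the list summed to 315 and 334 CPM at E13.5 and to 379 and 345 CPM at E14.5, against 297, 260, 300.1 and 325 CPM in the other cells. Kcnj8, a potassium channel subunit of pericytes, had 2.19 CPM in Lats1/2 CKO and 4.90 CPM in control cells at E13.5, and 11.3 and 5.85 CPM at E14.5. The other cells had 12.1, 11.1, 11.8 and 15.1 CPM of Kcnj8. Higd1b, P2ry14 and Art3, which also mark pericytes, were at 0 in the chosen cells of all 4 libraries, and Higd1b was also at 0 in the other cells at E13.5.

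Markers of further cell types were present at differing levels. Endothelial markers summed to 435 CPM in Lats1/2 CKO and 222 CPM in control cells at E13.5, and to 464 and 410 CPM at E14.5, with Egfl7 at 0 throughout. Epicardial markers summed to 118 and 108 CPM at E13.5 and to 158 and 140 CPM at E14.5. Valve mesenchyme markers, 12 genes, summed to 4847 CPM in Lats1/2 CKO and 3082 CPM in control cells at E13.5, and to 3970 and 3669 CPM at E14.5. Fibroblast markers, also 12 genes, summed to 2731 and 1973 CPM at E13.5, and to 3065 and 2083 CPM at E14.5. Of this list, Dpp4 and Mfap5 were held at 0 by the rule, and Tcf21, Col14a1, Lsp1 and Spon2 were limited by it. Erythroid transcripts, which in droplet data often come from free RNA, summed to 9594 CPM in Lats1/2 CKO and 3857 CPM in control at E13.5, and to 12742 and 16209 CPM at E14.5. Valve, fibroblast and, at E13.5, erythroid sums were higher in the Lats1/2 CKO cells, and their part in the results on genotype was not tested.

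Beyond the 9 genes of the rule, the cells were marked by Dkk3, a secreted Wnt modulator, and by Penk, Mpped2, Adamts2, Gxylt2 and Fstl3. Mgp, a matrix protein that inhibits calcification, had 3565 CPM in Lats1/2 CKO and 2732 CPM in control cells at E13.5, and 2534 and 1972 CPM at E14.5. Acta2 exceeded the other cells by at least 1.78 on the log2 scale in every library, Tagln by at least 1.70 and Cnn1 by at least 1.67. The number of marker genes seen sets how strict the rule is: in Lats1/2 CKO cells at E13.5, Acta2 stood at 398 CPM where 2 marker genes were seen, at 622 CPM with 3 and at 1411 CPM with 4. Postn, a matrix protein of valves and fibroblasts, had 3787, 3388 and 1675 CPM in the same cells. Cells near the threshold thus held less smooth muscle actin and more Postn RNA than cells well inside it.

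The share of cells that met the rule did not differ between the genotypes beyond counting error. Among cells under the cardiomyocyte limit, it was 11.98% in Lats1/2 CKO and 11.50% in control at E13.5, a ratio of 1.04 (95% counting interval 0.901 to 1.21). At E14.5 it was 5.89% in Lats1/2 CKO and 5.74% in control, a ratio of 1.03 (0.807 to 1.31). With every cell thinned to 500 UMIs the shares were 10.5% and 10.7% at E13.5, followed by 4.40% and 4.32% at E14.5. Among the chosen cells, those with 4 or more marker genes were 59.2% (exact binomial interval 54.5 to 63.8%) in Lats1/2 CKO and 71.6% (66.4 to 76.5%) in control at E13.5. At E14.5 they were 49.3% (41.0 to 57.7%) and 56.9% (48.2 to 65.4%). None of these shares was tested, and their intervals cover counting error only. The number of marker genes is itself what chose the cells. It was not thinned for depth here, so the genotypes are not compared by it. More cells with 3 or more marker genes were removed by the exclusion genes in the Lats1/2 CKO library at E13.5 (45.9%) than in its control (31.2%), and 36.5% and 33.8% were removed at E14.5.

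Contractile genes were lower in the Lats1/2 CKO cells within each stage. Of 17 contractile genes with a mean of at least 20 CPM, 8 were lower and 0 higher at E13.5 by counting intervals, and again 8 and 0 a day later, where 10.9% of all 7629 genes of that level were lower and 10.5% higher at E13.5, and 4.05% were lower and 3.08% higher at E14.5. The 7 that were lower at both stages were Acta2, Tagln, Myh11, Myl9, Tpm1, Actg2 and Cald1. Myh11 and Lmod1 belong to the rule, and without them 7 of 15 genes were lower at each stage and 6 at both. Of the 7629 genes, 0.826% were lower and 0.616% higher at both stages by the same measure. Over the 17 genes the median log2 ratio came to -0.41 for E13.5 and -0.39 for E14.5, against 0.09 and 0.05 for the same genes in the other cells, and -0.010 and -0.049 for all genes in the chosen cells. Counting intervals do not contain the spread between embryos.

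Acta2 (chr19:34241090-34255590, mm10, minus strand), smooth muscle alpha-actin, had 1699 CPM in Lats1/2 CKO and 2403 CPM in control cells at E13.5, and 916 and 1363 CPM at E14.5. The log2 ratio was -0.50 at E13.5 (95% counting interval -0.60 to -0.40) and -0.57 at E14.5 (-0.87 to -0.28). In the other cells it was 0.32 and -0.03. Tagln, which encodes the actin-bundling protein transgelin, had 1215 and 1872 CPM at E13.5 and 684 and 907 CPM at E14.5, Lats1/2 CKO before control. Both Lats1/2 CKO libraries were below the control of their own stage for Acta2 and Tagln, though Lats1/2 CKO at E13.5 stood above control at E14.5. Myl9, the regulatory light chain of smooth muscle myosin, had 643 CPM in Lats1/2 CKO and 873 CPM in control cells at E13.5, and 373 and 609 CPM at E14.5. Tpm1, a tropomyosin, had 1700 and 1929 CPM at E13.5 and 1425 and 1867 CPM at E14.5. Cald1, which encodes the actin-binding protein caldesmon, had 797 and 1432 CPM at E13.5 and 978 and 1229 CPM at E14.5. For Tpm1 and Cald1, both Lats1/2 CKO libraries lay below both control libraries. Cnn1, the gene of calponin, had 326 CPM in Lats1/2 CKO and 325 CPM in control cells at E13.5, and 181 and 181 CPM at E14.5, so contractile genes were not lower without exception.

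**Figure D2:**
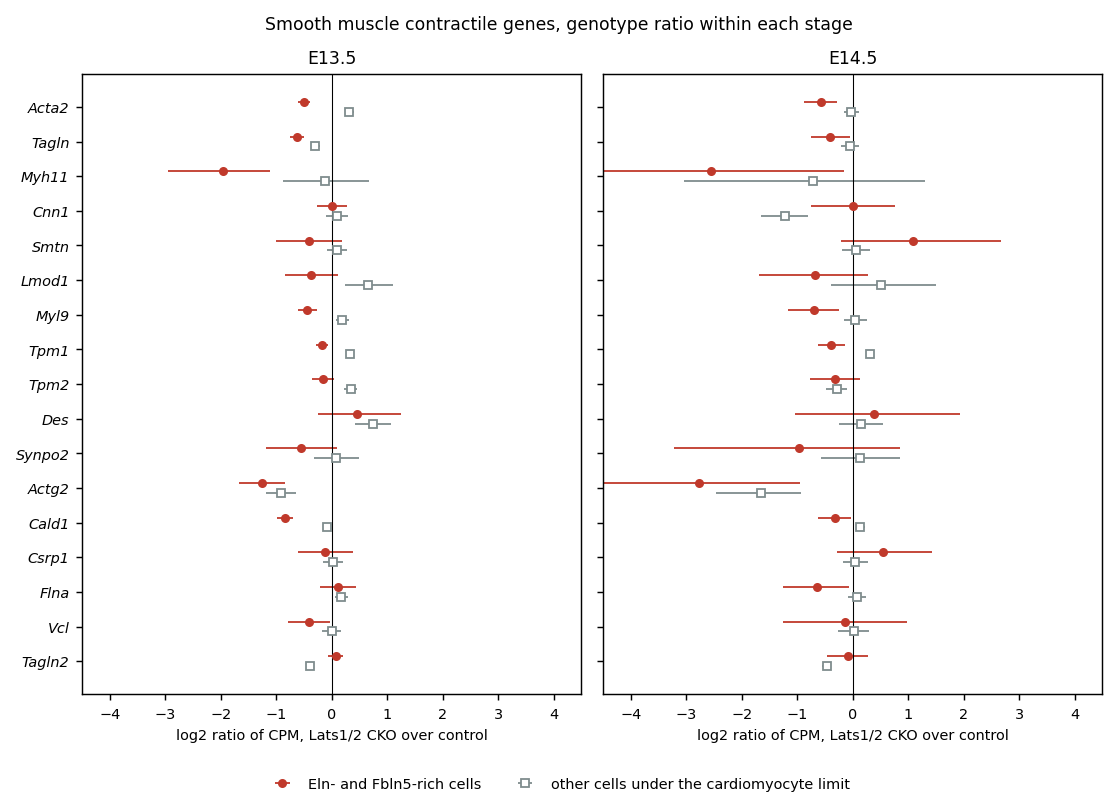
Log2 ratio of CPM, Lats1/2 CKO over control, within E13.5 (left) and E14.5 (right) for the 17 contractile genes with a mean of at least 20 CPM, with 95% counting intervals; intervals that run past the axis end at its edge. Red circles are the Eln- and Fbln5-rich cells and open grey squares the other cells: Acta2 lies at -0.50 and -0.57 in red and at 0.32 and -0.03 in grey, and Cnn1 lies at 0 in red at both stages.

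Across both stages, the genotypes were compared as 2 libraries against 2, with stage as a term, by edgeR's quasi-likelihood test with Benjamini-Hochberg adjustment at 0.05. In these cells 22 of 7059 genes rose (0.312%) and 15 fell (0.212%) in Lats1/2 CKO, and 216 (3.06%) and 174 (2.46%) had an unadjusted p under 0.05. DESeq2 called 3 higher and 1 lower, and all 4 were Rps13-ps1, Gm11942, Gm8420 and the joint entry of Gm17660 and Gm43333, none of them in a list used here. Of the 17 contractile genes tested, 1 fell and 0 rose. That gene was Actg2, smooth muscle gamma-actin, with 89.7 CPM in Lats1/2 CKO and 214 CPM in control cells at E13.5, and 11.3 and 93.6 CPM at E14.5. Its log2 fold change was -1.49 (SE 0.335, edgeR adjusted p = 0.0114). Actg2 was also lower in the other cells, with log2 ratios of -0.91 and -1.66 at the earlier and the later stage. Acta2 did not pass (log2 -0.52, edgeR adjusted p = 0.780). The fit had 1 residual degree of freedom, and the Actg2 call was lost in 7 of 10 alternatives.

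Many of the other 36 calls were ribosomal protein genes, pseudogenes of these and haemoglobin genes. Rps13-ps1, a ribosomal pseudogene, had 318 CPM in Lats1/2 CKO and 1.64 CPM in control cells at E13.5, and 368 and 0 CPM at E14.5. The other cells had 340.5 CPM in Lats1/2 CKO and 3.14 CPM in control of Rps13-ps1 at E13.5, and 426 and 3.09 CPM at E14.5. Rps2 fell, with 117 CPM in Lats1/2 CKO and 839 CPM in control cells at E13.5, and 345 and 597 CPM at E14.5. The log2 ratios of Rps2 in the other cells, -2.90 and -0.94, were close to those in the chosen cells, -2.84 and -0.79. Handling of reads that match several genes is not given in the sources used here, and pseudogene counts are uncertain for that reason.

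To ask which differences went beyond those of the rest of the library, the chosen and the other cells were fitted together, with library as a block and the difference of the 2 genotype effects as the coefficient. Here 26 of 14146 genes were higher (0.184%) and 25 lower (0.177%) in the chosen cells than the other cells' genotype effect, with 283 and 324 at an unadjusted p under 0.05. Of the 18 contractile genes, 4 were lower and 0 higher, and none of the 4 belongs to the rule. Acta2 was lower by 0.72 on the log2 scale (difference -0.72, SE 0.137, edgeR adjusted p = 1.7e-04). The differences for Myl9, Tpm1 and Cald1 were -0.68 (SE 0.152, edgeR adjusted p = 0.00385), -0.61 (SE 0.131, adjusted p = 0.00206) and -0.64 (SE 0.137, adjusted p = 0.00190). Part of the Acta2 and Tpm1 differences came from the other cells, where both were higher in Lats1/2 CKO at E13.5 (log2 0.32 for Acta2 and 0.34 for Tpm1). With at least 4 marker genes per cell, 0 of the 18 passed, and Acta2 differed by -0.46. With at least 2, 2 of the 18 passed. This fit, too, left 1 residual degree of freedom.

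The promoters of these 4 genes are shown because the genes were lower together and because MCAT elements and CArG boxes are the sites of TEAD factors and of SRF. Each stretch runs from 250 bases before to 50 bases after the transcript start of the RefSeq annotation of GRCm38.p6, 5′ to 3′ on the gene's strand. Capitals mark an MCAT element (CATTCC on either strand) or a CArG box in its strict form, CC, then 6 bases that are each A or T, then GG. Boxes that depart from these letters by a base, as known ones of Acta2 do, were not searched and stay in lower case. The Acta2 stretch (chr19:34255324-34255623, minus strand) had an MCAT element on the reverse strand from base -146, the Tpm1 stretch (chr9:67049164-67049463, minus strand) had 1 from base -56, and Cald1 (chr6:34598254-34598553, plus strand) had 1 from base -153. A second Cald1 promoter in the table (chr6:34709194-34709493, plus strand), not printed, held 0 matches to either motif. The Myl9 stretch (chr2:156775214-156775513, plus strand) had a CArG box from base -161.
Acta2: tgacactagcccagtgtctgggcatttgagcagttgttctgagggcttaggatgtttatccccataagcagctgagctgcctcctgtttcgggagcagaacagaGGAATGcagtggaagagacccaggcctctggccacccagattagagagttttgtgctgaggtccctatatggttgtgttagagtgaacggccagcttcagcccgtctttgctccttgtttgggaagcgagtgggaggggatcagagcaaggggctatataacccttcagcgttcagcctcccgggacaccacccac
Tpm1: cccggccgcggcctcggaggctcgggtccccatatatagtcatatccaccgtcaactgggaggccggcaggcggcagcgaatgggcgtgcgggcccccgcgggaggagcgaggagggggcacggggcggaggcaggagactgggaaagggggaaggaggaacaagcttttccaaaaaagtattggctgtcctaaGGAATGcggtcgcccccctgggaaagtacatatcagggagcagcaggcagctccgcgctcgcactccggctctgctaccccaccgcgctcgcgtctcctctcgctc
Cald1: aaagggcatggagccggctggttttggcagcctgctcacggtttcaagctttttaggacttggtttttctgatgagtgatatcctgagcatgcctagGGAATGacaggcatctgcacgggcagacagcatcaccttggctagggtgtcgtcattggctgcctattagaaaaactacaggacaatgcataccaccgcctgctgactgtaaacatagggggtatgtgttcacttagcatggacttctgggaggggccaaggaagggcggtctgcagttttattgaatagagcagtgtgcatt
Myl9: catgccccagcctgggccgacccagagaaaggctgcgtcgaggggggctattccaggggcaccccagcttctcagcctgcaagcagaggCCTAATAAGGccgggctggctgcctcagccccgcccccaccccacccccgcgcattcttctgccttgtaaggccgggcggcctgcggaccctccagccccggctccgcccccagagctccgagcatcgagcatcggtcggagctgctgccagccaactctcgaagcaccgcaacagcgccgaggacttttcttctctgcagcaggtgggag
Of all 32851 promoters in that table, 14.7% held the MCAT letters and 1.63% a strict CArG box. Of 17 promoters found for 15 of the 18 contractile genes, 9 held the MCAT letters and 2 a CArG box. A match is a description of the letters and not of a bound site.

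Genes of valve mesenchyme and fibroblasts went the other way. Of the 12 valve mesenchyme genes, all 12 had a positive difference, and 5 passed as higher and 0 as lower: Sox9, a transcription factor of cushion mesenchyme, Hapln1 and Vcan, which build the hyaluronan matrix of the cushions, the transcription factor gene Tbx20, and Postn. Of the 12 fibroblast genes 4 were higher, Pdgfra, Dpt, Lum and Dcn, and 0 lower. Of all 14146 genes tested, 7127 had a positive difference, and 0.184% passed as higher and 0.177% as lower. In the fit on the chosen cells alone, 0 of 11 valve genes and 0 of 8 fibroblast genes passed edgeR's test, with 2 and 3 of them higher at an unadjusted p under 0.05. The rule itself limited Tcf21, Col14a1, Lsp1 and Spon2 of the fibroblast list, and held Dpp4 and Mfap5 of that list at 0. Erythroid genes were also among the higher ones in the fit of differences. Of 10, 5 were higher and 0 lower: Hbb-bs, Hbb-bt, Hba-a1, Hba-a2 and Hbb-bh1.

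Postn had 1928 CPM in Lats1/2 CKO and 1023 CPM in control cells at E13.5, and 1555 and 1545 CPM at E14.5. The other cells had 1374 CPM in Lats1/2 CKO and 1600 CPM in control of Postn at E13.5, and 996 and 1425 CPM at E14.5. The Postn difference was 0.85 (SE 0.132, edgeR adjusted p = 4.3e-07), and within the chosen cells the excess was seen at E13.5 (log2 0.91) and not at E14.5 (0.01). Lum, the gene of the collagen-binding proteoglycan lumican, had 1170 CPM in Lats1/2 CKO and 902 CPM in control cells at E13.5, and 1024 and 661 CPM at E14.5. Dcn, the gene of decorin, a like proteoglycan, had 938 and 588.5 CPM at E13.5 and 1391 and 807.5 CPM at E14.5. Lum and Dcn were above the control of the same stage in both Lats1/2 CKO libraries, and both Lats1/2 CKO libraries were above both control libraries. In the other cells their log2 ratios were negative, -0.41 and -0.37 for Lum and -0.14 and -0.16 for Dcn.

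The Lum difference was 0.86 (SE 0.142, edgeR adjusted p = 3.0e-06) and the Dcn difference 0.86 (SE 0.140, adjusted p = 2.2e-06). Lum was called in all 6 alternatives of this fit, and Dcn and Postn in 5 of 6. With at least 4 marker genes per cell, 0 of the valve genes passed. Car3, a carbonic anhydrase, had 224 CPM in Lats1/2 CKO and 75.2 CPM in control cells at E13.5, and 84.8 and 58.5 CPM at E14.5, while the other cells had 107 and 216 CPM at E13.5 and 64.8 and 147.5 CPM at E14.5. Its difference was 2.42 (SE 0.250, edgeR adjusted p = 5.8e-18). Car3 was thus high in the Lats1/2 CKO library at E13.5 among the chosen cells, and low in both Lats1/2 CKO libraries among the others. In the fit on the chosen cells alone Car3 also rose (log2 1.32, edgeR adjusted p = 0.0311), and it had the other sign, -0.44, with at least 2 marker genes per cell.

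**Figure D3:**
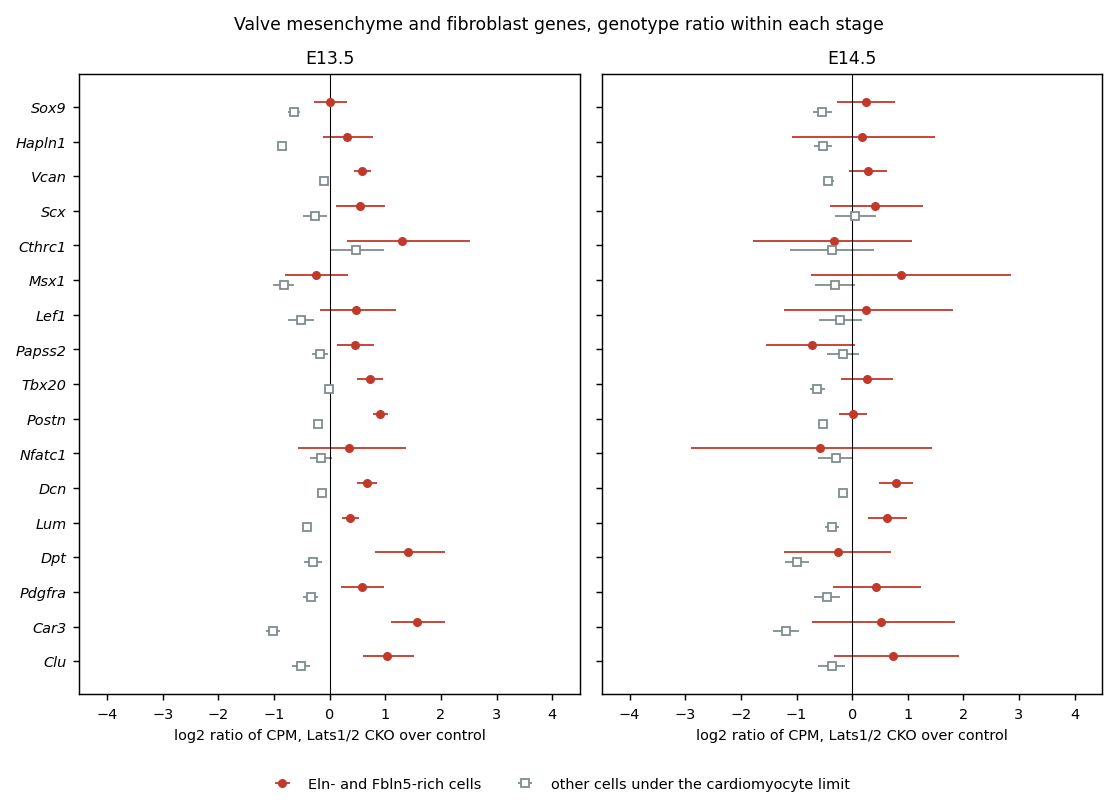
Log2 ratio of CPM, Lats1/2 CKO over control, within E13.5 (left) and E14.5 (right) for the 11 valve mesenchyme genes with a mean of at least 20 CPM and for Dcn, Lum, Dpt, Pdgfra, Car3 and Clu, with 95% counting intervals. Red circles (Eln- and Fbln5-rich cells) lie mostly above 0 and open grey squares (other cells) mostly below it at both stages; Postn lies at 0.91 and 0.01 in red and at -0.22 and -0.52 in grey.

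Among single genes that passed a test outside the contractile list was Clca3a2, of a family of secreted proteins that modulate chloride channels. It had 21 UMIs in Lats1/2 CKO and 78 in control cells at E13.5, followed by 9 and 27 at E14.5, which is 23.0 and 127.5 CPM, and 50.9 and 158 CPM. Both Lats1/2 CKO libraries were below both control libraries. It fell by 2.16 on the log2 scale (SE 0.363, edgeR adjusted p = 5.4e-05), and its difference from the other cells was -2.51 (SE 0.472, adjusted p = 1.1e-04). Clca3a2 has close paralogs, so its counts may be shared with them. Cdkn1c, which encodes the cell cycle inhibitor p57 and is imprinted, had 729 CPM in Lats1/2 CKO and 1344 CPM in control cells at E13.5, and 458 and 1088 CPM at E14.5. It fell by 1.03 (SE 0.241, edgeR adjusted p = 0.0191), and the other cells had log2 ratios of -0.60 and 0.10. The calls of Clca3a2 and Cdkn1c in the chosen cells were each lost in 6 of 10 alternatives.

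Smoc2, a matricellular protein, had 221 CPM in Lats1/2 CKO and 381 CPM in control cells at E13.5, and 124 and 257.5 CPM at E14.5, and its difference from the other cells was -1.18 (SE 0.206, edgeR adjusted p = 1.5e-05). Lox, the enzyme that crosslinks elastin and collagen, had 386 and 531 CPM at E13.5 and 271.5 and 374.5 CPM at E14.5, Lats1/2 CKO before control. Its difference was -0.93 (SE 0.168, edgeR adjusted p = 4.1e-05), to which the other cells contributed with log2 ratios of 0.24 and 0.97. Of 17 elastic fibre genes 2 were lower in this fit, against 0.177% of all genes. These 2 were Lox and Fbln5, and Fbln5 belongs to the rule. The median log2 ratio of the elastic fibre genes in the chosen cells came to 0.07 (E13.5) and -0.01 (E14.5), close to 0 at both stages. This median includes Eln and Fbln5 of the rule, and it was not taken without them. Nrp1, a coreceptor of semaphorins and VEGF, was also lower (difference -0.71, SE 0.170, edgeR adjusted p = 0.0113). So was Peg3, an imprinted gene (difference -0.66, adjusted p = 0.00599). Smoc2 and Lox were called in 5 of 6 alternatives of this fit, Peg3 in 3 and Nrp1 in 2.

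Immediate early genes, which rise within minutes of stimulation or of tissue dissociation, had mostly negative ratios in the Lats1/2 CKO cells. Of 16 with a mean of at least 20 CPM, 6 were lower at both stages, Fos, Fosb, Junb, Zfp36, Atf3 and Btg2, and 0 were higher by counting intervals, against 0.826% lower and 0.616% higher of all genes. Fos had 1680 CPM in Lats1/2 CKO and 2652 CPM in control cells at E13.5, and 1420 and 2165 CPM at E14.5. The other cells had 922 CPM in Lats1/2 CKO and 1160 CPM in control of Fos at E13.5, and 675 and 1066 CPM at E14.5. The list's median log2 ratio came to -0.64 (E13.5) and -0.23 (E14.5) over the chosen cells, against -0.29 and -0.33 in the other cells. None of the 16 passed in the fit on the chosen cells (8 had an unadjusted p under 0.05 as lower), and Zfp36 and Atf3 passed as lower in the fit of differences.

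Genes downstream of the floxed kinases had medians near 0. Of 18 genes listed as targets of Yap that were tested in the chosen cells, 0 rose and 0 fell, with 0 and 1 at an unadjusted p under 0.05. Ctgf had 404.5 CPM in Lats1/2 CKO and 271 CPM in control cells at E13.5, and 130 and 228 CPM at E14.5. Cyr61 had 714 and 729 CPM at E13.5, and 509 and 491.5 CPM at E14.5. The median log2 ratio of the list came to 0.01 (E13.5) and 0.07 (E14.5) over the chosen cells, and 0.10 and 0.30 in the other cells. Of 15 genes of the Hippo pathway 0 passed edgeR's test, and 0 had an unadjusted p under 0.05. Wwtr1, which encodes Taz, had 172 CPM in Lats1/2 CKO and 149 CPM in control cells at E13.5, and 113 and 164 CPM at E14.5.

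Genes of the second heart field and of Notch signalling had negative medians at E13.5 and positive ones at E14.5. Of 12 outflow and second heart field genes with a mean of at least 20 CPM, 8 were lower and 3 higher at E13.5, and 1 was lower and 1 higher at E14.5, with medians of -0.98 and 0.36. Of all genes, 10.9% were lower and 10.5% higher at E13.5, and 4.05% were lower and 3.08% higher at E14.5. Foxc1, a forkhead factor of the outflow tract and vessel wall, had 41.6 CPM in Lats1/2 CKO and 111 CPM in control cells at E13.5, and 73.5 and 35.1 CPM at E14.5. Jag1, the Notch ligand of arterial smooth muscle, had 64.5 and 144 CPM at E13.5, and 67.9 and 70.2 CPM at E14.5. Hes1, a Notch target, had 112 CPM in Lats1/2 CKO and 227 CPM in control at E13.5, and 96.1 and 87.8 CPM at E14.5. In the fit across both stages 0 of 11 genes of the first list and 0 of 9 Notch genes passed edgeR's test, with 3 higher and 2 lower of the first list and 2 lower of the second at an unadjusted p under 0.05, and the difference between stages was not tested. Of 9 Notch genes 4 were lower at E13.5 and 0 at E14.5 by counting intervals, with medians of -0.71 and 0.31. Genes of the rule were not taken out of the outflow and Notch lists. Pericyte genes had medians of -0.03 and 0.08, and of 7 tested 0 passed and 0 had an unadjusted p under 0.05.

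Clustering of the 1058 cells on variable genes gave 5 clusters, which are a description since they were made from the same RNA. Cluster 4, smooth muscle-like by 9 of 11 markers, held 174 cells with 4448 CPM of Acta2, 2809 CPM of Tagln and 13393 CPM of Eln, and was led by Clca3a2. Cluster 1, valve mesenchyme-like by 10 of 10 markers, held 393 cells with 2880 CPM of Postn, 2023 CPM of Vcan, 894 CPM of Tbx20 and 537 CPM of Sox9. It was also above the remaining cells for 6 cardiomyocyte, 5 erythroid and 4 fibroblast markers, with Hbb-bs at 4096 against 1912 CPM. Its Acta2 level was 892 CPM and its Eln level 2335 CPM. Cluster 0, with 278 cells, stayed unnamed and had 5568 CPM of Sfrp2, 2227 CPM of Cxcl12, 1915 CPM of Cdkn1c and 726 CPM of Smoc2. Cluster 2, with 209 cells, was led by the mitotic genes Hmmr, Prc1 and Aspm, and cluster 3 held 4 cells with macrophage genes. The rule thus joined cells rich in Acta2 and Eln with cells rich in Postn and Vcan. The comparisons of genotypes and of stages on summed counts therefore cover this mixture, and not a single named cell type.

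The smooth muscle-like cluster 4 held 13.53% of the Lats1/2 CKO and 23.1% of the control cells at E13.5, followed by 9.59% and 17.5% at E14.5. The valve mesenchyme-like cluster 1 held 44.3% of the Lats1/2 CKO and 23.1% of the control cells at E13.5, followed by 42.5% and 40.9% at E14.5. These sizes rest on genes that differed between the libraries, and they were not tested.

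**Figure D4:**
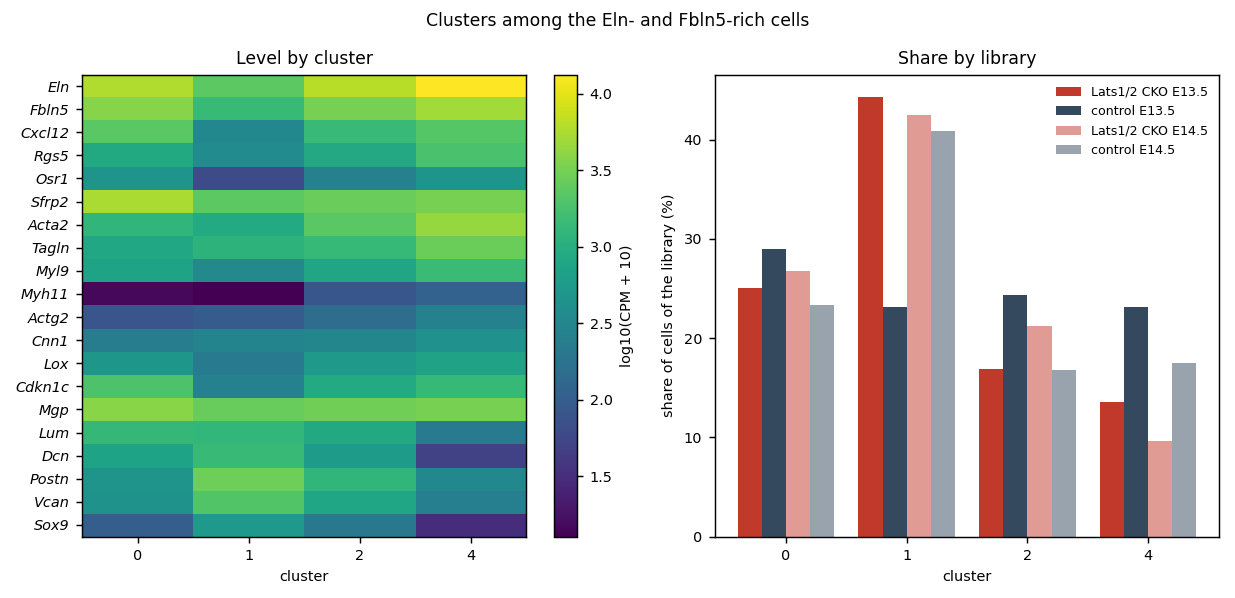
Left, level of 20 genes (log10 of CPM + 10) in the 4 larger clusters of the Eln- and Fbln5-rich cells; right, share of each library's cells in each cluster (%), Lats1/2 CKO in red and control in blue, E13.5 dark and E14.5 pale. Acta2 and Eln are high in cluster 4 and Postn and Vcan in cluster 1, which held 44.3% of Lats1/2 CKO and 23.1% of control cells at E13.5.

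Within clusters the contractile ratios varied in size and sign. In cluster 4, Acta2 had 4451 CPM in Lats1/2 CKO and 4882 CPM in control cells at E13.5 (log2 -0.13, counting interval -0.31 to 0.04), and 1944 and 3666 CPM at E14.5 (-0.90, -1.59 to -0.28), where 14 and 24 cells were left. In cluster 0, Acta2 had 1219 and 1329 CPM at E13.5, and 1214 and 847 CPM at E14.5, so the order of the genotypes was the other way at E14.5. Acta2 within cluster 1 had log2 ratios of -0.13 (E13.5) and -0.93 (E14.5), and within cluster 2 of -0.33 and -0.58. The intervals of cluster 1 for the earlier stage and of cluster 2 for the later held 0. Without cluster 1, Acta2 was lower, with log2 ratios of -0.30 (E13.5) and -0.48 (E14.5). Tagln was then at -0.52 and -0.72, and Postn at 0.53 and -0.52. The Acta2-rich cluster 4 stayed in these sums, with 61 Lats1/2 CKO against 75 control cells (E13.5) and 14 against 24 (E14.5). The part of this imbalance in the ratios was not tested. Cald1 was lower within cluster 4 at E13.5, with 1442 CPM in Lats1/2 CKO and 2245 CPM in control (log2 -0.64, -0.93 to -0.35).

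Cdkn1c was lower in Lats1/2 CKO in each of the 4 larger clusters at both stages, though the intervals of cluster 1, and that of cluster 4 at E14.5, held 0. In cluster 0 it had 1489 CPM in Lats1/2 CKO and 2692 CPM in control at E13.5, and 723.5 and 2435 CPM at E14.5. Clca3a2 in cluster 4 had 106 CPM in Lats1/2 CKO and 400.0 CPM in control cells at E13.5, and 139 and 453 CPM at E14.5. The log2 ratio of Lum was above 0 in clusters 0 and 2 at both stages, with intervals that held 0 at E14.5. In cluster 4 Lum was at 0 UMIs in the 14 Lats1/2 CKO cells of E14.5 and at 181 CPM in the control cells, with a log2 ratio of 0.79 at E13.5, and in cluster 1 the log2 ratios were -0.20 (E13.5) and 0.57 (E14.5).

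**Figure D5:**
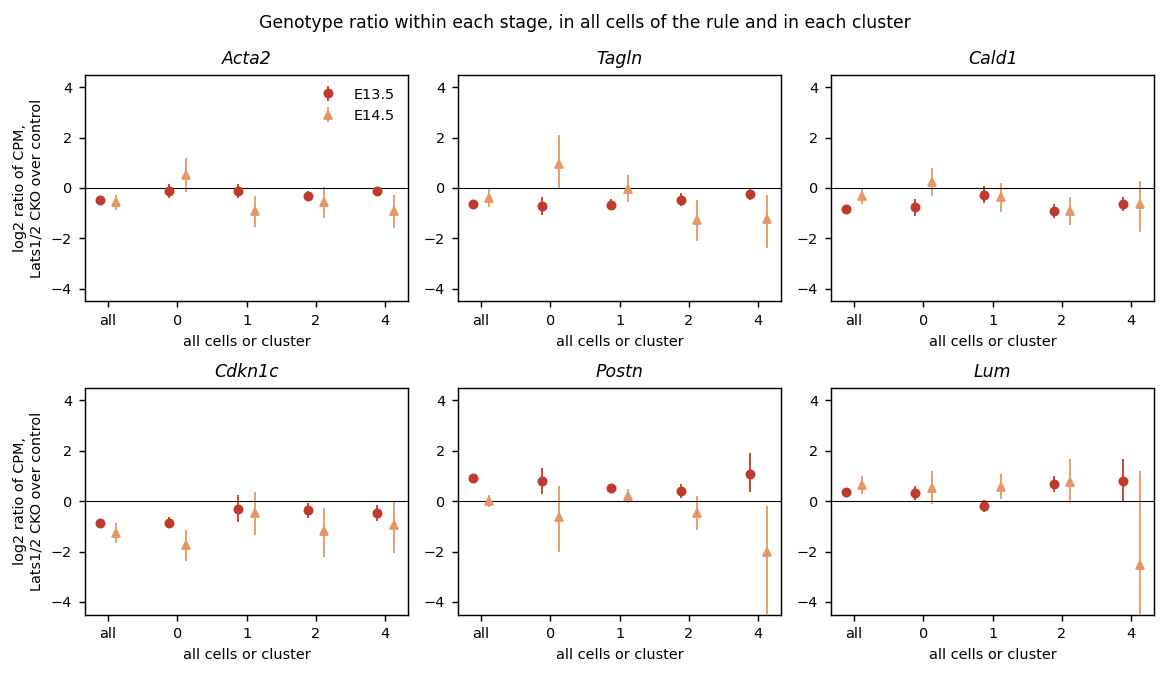
Log2 ratio of CPM, Lats1/2 CKO over control (vertical axis), for 6 genes in all Eln- and Fbln5-rich cells and in clusters 0, 1, 2 and 4, with 95% counting intervals that end at the axis edge where they run past it; circles are E13.5 and triangles E14.5. Cdkn1c lies below 0 in every cluster at both stages. Acta2 in cluster 0 lies at -0.13 at E13.5 and at 0.51 at E14.5, with intervals that hold 0.

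Between the stages, with genotype as a term, 120 of 7059 genes were higher (1.7%) and 21 lower (0.297%) at E14.5 than at E13.5 by edgeR's test. Ribosomal protein genes led the higher ones, 11 of 12 cardiomyocyte markers were among them, and none of the ribosomal genes passed in the fit of differences. Cardiomyocyte markers summed to 4049 CPM in Lats1/2 CKO and 5395 CPM in control cells at E14.5, and to 2051 and 1439 CPM in the E13.5 cells. Tagln and Actg2 fell, by 0.84 and 1.54 on the log2 scale (edgeR adjusted p = 0.0363 and 0.0125), as 2 of 17 contractile genes. In 5 of 10 alternatives, DESeq2 among them, 0 genes were lower at E14.5, and both calls were lost there. Set against the stage effect in the other cells, 6 of 14146 genes were higher (0.0424%) and 1 lower (0.00707%). Eln, Fbln5, Sfrp2 and Cxcl12 were 4 of the 6 and chose the cells. Igf1, a growth factor made by mesenchyme, was the 5th, with 933 CPM in Lats1/2 CKO and 802 CPM in control cells at E14.5, against 732.5 and 772 CPM at E13.5. In the other cells Igf1 had 286 CPM in Lats1/2 CKO and 367 CPM in control at E14.5, against 427 and 610 CPM at E13.5. Its difference was 0.77 (SE 0.146, edgeR adjusted p = 3.4e-04). Ramp2, part of the adrenomedullin receptor, was higher (difference 0.79, adjusted p = 0.0460), and Ube2c, a mitotic ubiquitin-conjugating enzyme, lower (-0.97, adjusted p = 0.00931).

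Reporter RNA was rare. Egfp, made from the mTmG allele after recombination, was seen in 6.43% of the Lats1/2 CKO and 3.70% of the control cells at E13.5, and in 2.74% and 3.65% at E14.5. Cells at or over the cardiomyocyte limit, taken as the background, had an Egfp UMI in 8.09% of Lats1/2 CKO and 3.49% of control cells at E13.5, and in 3.04% and 3.08% at E14.5. Their median depth was 2593, 1971, 1126 and 1040 UMIs, deeper than that of the chosen cells. Thinned to 500 UMIs, the shares in the chosen cells were 1.55% in Lats1/2 CKO and 0.617% in control at E13.5, followed by 1.37% and 2.19% at E14.5. In the cells at or over the limit they were 1.63% and 0.542% at E13.5, followed by 0.994% and 1.06% at E14.5. By these shares, Egfp in the chosen cells was not distinguished from background. The thinned shares rest on 7, 2, 2 and 3 chosen cells in the same order. By level, cells at or over the limit had 24.9 CPM in Lats1/2 CKO and 11.5 CPM in control at E13.5. At E14.5 they had 22.6 and 18.6 CPM. In control, both values lay below those of the chosen cells, given next, which rest on 13 and 8 UMIs. This was not tested. The other cells under the limit had 105 CPM of Egfp in Lats1/2 CKO and 23.9 CPM in control at E13.5, and 133 and 22.6 CPM at E14.5, while the chosen cells had 32.8 and 21.3 CPM, and 22.6 and 46.8 CPM. The genotype effect on Egfp was lower in the chosen cells (difference -2.08, SE 0.480, edgeR adjusted p = 0.00696). The rule left cells with epicardial genes among the other cells, and the Cre is driven mainly in the epicardium. The choice of cells thus enters this difference, and its part was not tested.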

How the data were processed

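Droplet-based single-cell libraries (Drop-seq) were made from hearts, per the labels. The authors deposited a single table of whole-number UMI counts, 30268 genes by 24849 cells of 4 libraries, which was used without change. STAR, Picard and the build mm10 are named in the submitters' processing notes, and settings for reads that match several genes are not given in the sources used here. Cells were tied to libraries by the suffix of their barcodes.

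Cells were chosen by the rule stated above. Counts of the chosen and of the other cells under the cardiomyocyte limit were summed per library and tested with edgeR 4.0.16 (quasi-likelihood, TMM scaling, filterByExpr, Benjamini-Hochberg at 0.05), with DESeq2 1.42.0 as an alternative. Since there was 1 library per genotype and stage, each fit left 1 residual degree of freedom. In the fit on the chosen cells, p-values rest on the spread between libraries that the additive terms leave. In the fit of differences, library was a block, so p-values rest on the spread left in the difference between chosen and other cells. Neither fit held a repeated library of the same genotype and stage. Ratios within a stage carry exact conditional binomial intervals at 95%, with 0.5 counts added for the log2 value, and cover counting error only. Clusters came from scanpy 1.11.5 (Leiden, resolution 0.5, with listed cell cycle genes and haemoglobin and mitochondrial genes left out). Mitotic genes outside the lists, such as Hmmr, Prc1 and Aspm, were not left out. No doublet caller was run, and an alternative left out the 5% of cells with the most UMIs. The scripts were tested on simulated counts with a dispersion (spread beyond counting error) of 0.01 and of 0.05. The fit on the chosen cells recovered 44% and 8% of 2-fold changes, and 85% and 74% of 4-fold changes. The fit of differences recovered 14% and 1%, and 53% and 16%. The dispersion fitted to the data was 0.0356 in the chosen cells and 0.00587 in the fit of differences. A gene that did not pass may thus still differ.

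The cells, gene lists and tests were chosen with earlier results of these data known. Named genes were the 9 of the rule, the 20 with the largest excess over the other cells, genes past adjusted p 0.05 and genes of the lists. Gene positions are from the GENCODE annotation of GRCm38, and promoters from RefSeq.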

Additional observations from a re-analysis of the deposited data

Results flagged for a closer look

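Among 308 listed genes with a mean of at least 20 CPM, 11 had log2 ratios of Lats1/2 CKO over control that were on opposite sides of 0 at E13.5 and E14.5, each with a counting interval that left out 0. The difference between the stages was not tested for any of them, and there was 1 library for each genotype and stage. The same count was not made over all 7629 genes of that level, so the 11 have no background to be set against. Of those 7629 genes, 10.9% were lower and 10.5% higher at E13.5 by counting intervals, and 4.05% were lower and 3.08% higher at E14.5.

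The cardiomyocyte gene Actc1 had log2 ratios of 0.87 (E13.5) and -0.96 (E14.5). Myh7 had 1.34 and -0.56, and Tnni3 had 0.90 and -1.10. Ctgf, a target of Yap, had 0.57 and -0.80. Hmgb2, a gene of dividing cells, had -0.84 and 0.81. Ltbp4, an elastic fibre gene, had -0.36 and 0.64. Osr1, which is part of the rule, had -0.97 and 0.83. The glycolysis and hypoxia genes Pdk1 and Tpi1 had 1.43 and 0.92 at the earlier stage, against -1.63 and -0.62 at the later. Rock1, a gene of the contraction signalling list, had -0.61 and 0.77. Sparc, a matrix gene, had 0.09 and -0.37.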

How the results depend on the processing

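No paired analysis was possible because the labels give no replicate numbers; libraries of the same stage were matched only through the stage term of the fit, and leaving out a library would leave a genotype without a value at that stage. Genes higher and lower by genotype in the chosen cells numbered 4 and 2 with at least 2 marker genes per cell, 4 and 2 with at least 4, 0 and 0 when fewer than 2 distinct genes of each exclusion list were allowed, 2 and 2 without the 5% of cells with the most UMIs, 3 and 1 with DESeq2, and 1 and 0 with genotype alone in the fit; Car3 had the other sign (-0.44) with at least 2. By stage, higher and lower genes numbered 60 and 0 with at least 4 marker genes, 27 and 0 with distinct exclusion genes, 45 and 0 without the cells with the most UMIs, 54 and 0 with DESeq2, and 50 and 0 with stage alone; 38 were lower with every gene tested, and 1 with at least 2 marker genes. In the difference from the other cells, higher and lower genes by genotype numbered 14 and 11 with at least 2 marker genes and 8 and 3 with at least 4; 15 were lower with every gene tested and 16 without the cells with the most UMIs. Dpt then had the other sign (-0.20) with at least 4. Contractile genes lower numbered 2 with at least 2 marker genes and 0 with at least 4, and valve genes higher 3 and 0. By stage, 15 were higher with at least 2, 10 higher and 4 lower with at least 4, and 5 lower with distinct exclusion genes. Of 51 genes called in the difference by genotype, 7 were called in all 6 alternatives. They were Clca3a2, Lum, Prss23 and the haemoglobin genes Hba-a1, Hba-a2, Hbb-bs and Hbb-bt.

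The share of chosen cells, for Lats1/2 CKO and control at E13.5 and then at E14.5, was 7.62%, 7.24%, 2.61% and 2.49% of all cells past the first filters, 19.2%, 17.7%, 10.8% and 11.1% with at least 2 marker genes, and 7.09%, 8.24%, 2.91% and 3.27% with at least 4, where the ratio at E13.5 was 0.861. It was 13.9% in Lats1/2 CKO at E13.5 with distinct exclusion genes, and after thinning 10.5% there, and 4.40% and 4.32% at E14.5. Cells with an Egfp UMI after thinning were 1.55% of Lats1/2 CKO and 0.617% of control cells at E13.5. Clusters numbered 2 at resolution 0.3 and 9 at resolution 1.0. The cause of these moves was not tested. The alternatives without Dpp4 and Mfap5 as exclusions, without cluster 1, and the list counts were chosen after seeing the data. Depth limits the E14.5 libraries most.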
